A study of Mus musculus with 10 samples.

Results

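Heat shock proteins, their DNAJ partners and the subunits of the chaperonin CCT were examined in mouse liver and in liver tumours, 73 genes among the 16697 gene entries of the table. They were chosen by symbol, with a rule that reads no measured value but was set with earlier results of these data known. Symbols that start with Hspa, Hspb, Hspd, Hspe, Hsph, Dnaja, Dnajb, Dnajc or Cct followed by a digit were taken. Tcp1, the first CCT subunit, was added, and Hspa5, the HSP70 of the endoplasmic reticulum (ER), was left out. The rule also names Hsp90a followed by a digit, which matched no symbol, so the HSP90 genes are given among the other genes of the pathway. The 73 genes comprised 9 CCT genes, 13 HSP70 and HSP110 genes, 2 mitochondrial chaperonin genes, 7 small HSP genes, 40 DNAJ genes and 2 pseudogene entries. Of these, 67 passed the filter of at least 1 FPKM in at least 3 libraries and were tested.

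The libraries came from normal liver (NL, n = 4), from tumours induced with c-MYC and an empty pT3 vector (c-MYC, n = 3) and from tumours induced with c-MYC and FOXO1AAA (c-MYC/FOXO1AAA, n = 3). Means are given with ± SD over these numbers of libraries. FOXO1AAA is a form of the transcription factor FOXO1 that AKT cannot inactivate. The plasmids were delivered to hepatocytes by hydrodynamic tail vein injection and the FOXO1AAA plasmid is driven by the EF1α promoter, so each tumour also holds the other cells of its liver. All 10 samples are labelled strain C57BL/6 and genotype WT, whereas the notes on RNA extraction name FVB for the normal livers. The study itself names FVB/N mice for both tumour groups and for the normal livers. A legend of the study adds MCL1 to the control plasmids, which neither the labels nor the study's list of injected plasmids do. The study's methods count the tumour samples by mice and the NL samples by livers, so each library is taken here as a separate animal, and age is not given in the sources used here. The comparisons asked how the chaperones differ between c-MYC tumours and normal liver, and how they differ in c-MYC tumours when FOXO1 is kept active.

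Chaperones hold or fold other proteins. HSP70 proteins bind unfolded stretches in cycles of ATP use, DNAJ proteins bring them their clients and set off ATP hydrolysis, and HSP110 proteins exchange the nucleotide. CCT is a double ring in the cytosol that folds actin, tubulin and other newly made proteins, HSP60 with its lid HSP10 does similar work in mitochondria, and small HSPs hold unfolding proteins without using ATP. The heat shock factor HSF1 induces many of these genes through heat shock elements, while other members are made at all times in proportion to protein synthesis. In normal liver, hepatocytes make large amounts of secreted protein and carry an extensive ER.

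Recovered depth was between 13.1 M and 20.5 M reads per library. Foxo1, the gene of the transgene, stood at 95.6, 83.6 and 70.1 FPKM in c-MYC/FOXO1AAA against 5.26, 6.46 and 5.17 FPKM in c-MYC, as labelled. FPKM are fragments per length of the gene and per scaled library size, and the scaling was large here: the factors lay between 0.649 and 0.684 in NL, between 1.26 and 1.29 in c-MYC and from 1.45 up to 1.5 in c-MYC/FOXO1AAA. Rescaling all libraries to the same FPKM total moved the median log2 fold change of all tested genes from 0.08 to 1.01 in c-MYC versus NL, from 0.03 to 0.20 between the tumour groups and from 0.21 to 1.31 in c-MYC/FOXO1AAA versus NL. With that rescaling, the log2 fold changes of 20 members turned from negative to positive in c-MYC versus NL, of 7 between the tumour groups and of 17 in c-MYC/FOXO1AAA versus NL. Dnaja1, Dnajb6, Dnajc3 and Dnajc30 in the first comparison and Dnaja1, Dnaja3 and Dnajb12 in the last had been called lower before the turn. The tissue was checked with 5 hepatocyte genes, whose summed level was 79202 to 89103 FPKM in NL, 3166 to 4968 FPKM in c-MYC and 856 to 1533 FPKM in c-MYC/FOXO1AAA. In bulk tissue, fewer cells of a type and less RNA per cell cannot be told apart.

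The promoter stretches below are shown because the genes behind them moved in different directions while sharing the letters of the heat shock element, GAANNTTC, which is given in capitals. They are from RefSeq (GRCm38.p6), 5′ to 3′ on the strand of the gene. The 150 bases before the start of Hspa1a (chr17:34972157-34972306, minus strand) and Hspa1b (chr17:34959239-34959388, minus strand), neighbouring genes of the inducible HSP70, are equal at 149 positions and both hold the motif from base -104 to -97 counted from the start. The same length before Hspb1 (chr5:135887769-135887918, plus strand), a small HSP, holds it at 2 places.
Hspa1a: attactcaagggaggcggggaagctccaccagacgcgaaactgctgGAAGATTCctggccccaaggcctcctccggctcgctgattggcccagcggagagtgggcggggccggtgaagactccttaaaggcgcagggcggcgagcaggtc
Hspa1b: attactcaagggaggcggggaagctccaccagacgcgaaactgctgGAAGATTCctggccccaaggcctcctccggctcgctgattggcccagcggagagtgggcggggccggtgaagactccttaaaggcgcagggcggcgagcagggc
Hspb1: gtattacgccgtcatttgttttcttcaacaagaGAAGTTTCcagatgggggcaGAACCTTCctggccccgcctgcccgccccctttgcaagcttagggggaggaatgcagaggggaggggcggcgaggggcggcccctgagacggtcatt

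Shorter stretches of 30 bases are shown for 2 other small HSPs, for a site near the starts of Hspd1 (HSP60) and Hspe1 (HSP10), and for Dnajb6. Hspb6 (chr7:30553170-30553199, plus strand) holds the core before a start inside the gene, and in Hspb8 (chr5:116422844-116422873, minus strand) the core begins 2 bases past the first transcribed base. Hspd1 and Hspe1 lie head to head on chromosome 1 and overlap by 111 bp. The same 18 bases between 55088059 and 55088076 hold 4 alternating units, TTC and GAA, for both genes (chr1:55088053-55088082, plus strand). These bases lie before the start of Hspe1. For Hspd1 they lie inside the annotated gene, before an internal start. Dnajb6 (chr5:29735843-29735872, plus strand) holds 3 units, likewise inside the gene and before an internal start.
Hspb6: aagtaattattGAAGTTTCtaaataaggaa
Hspb8: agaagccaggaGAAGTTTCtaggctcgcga
Hspe1: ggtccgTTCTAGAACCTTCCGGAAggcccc
Dnajb6: cagctccgaGAATCTTCCGGAAcgctagac

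A RefSeq window from 250 bases before to 50 bases after the start was given for 59 of the 73 genes. The core GAANNTTC, which reads the same on both strands, was in the windows of 14 of them (23.7%), of 9.04% of all 27025 genes with a window and of 7.02% of the 11718 of these in the expression table. Of these 14 genes, Dnajb6, Hspd1, Hspe1 and Hsph1 held the 3-unit form TTCNNGAANNTTC on either strand, which contains the core (6.78% of the 59, against 0.662% of all genes and 0.538% of those in the table). The hits of Hspd1 and Hspe1 are the same bases, and the stretches of Hspa1a and Hspa1b are near-identical. These shares therefore count genes and not separate sites. The FOXO motif GTAAACA was found on either strand in 3 members (5.08%, against 4.05% of all genes and 3.35% of those in the table): Dnajb12, Dnajc10 and Dnajc6. The last of these are shown, Dnajc10 (chr2:80315258-80315287, plus strand) because it was higher with FOXO1AAA and Dnajc6 (chr4:101507930-101507959, plus strand, before a start inside the gene) because it was lower. The E-box CACGTG, the motif that MYC is known to bind, was in 6 members (10.2%), a share above the 8.09% of all genes and below the 11.3% of those in the table. A match describes letters in a window and is no evidence of binding.
Dnajc10: tacataaaagttGTAAACAattttatttct
Dnajc6: ttttggaagtcgTGTTTACgtctgccttca

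In c-MYC tumours 19 of the 67 tested members were higher and 17 were lower than in NL, called with limma for a change above 1.5-fold at an adjusted p under 0.05. The higher members were 28.4% of those tested beside 24.5% of all 14017 genes, and the lower ones 25.4% beside 23.6% (48.1% of all genes were called in either direction). Libraries of the groups did not overlap for 30 higher and 27 lower members (39% and 34.9% of all genes). With FOXO1AAA, 10 members were higher and 6 lower than in c-MYC, or 14.9% and 8.96% of those tested, beside 15.9% and 12.7% of all genes (28.7% in either direction), and the groups did not overlap for 20 and 31 members (32.7% and 30.7% of all genes). Against NL, c-MYC/FOXO1AAA had 21 members higher and 19 lower (31.3% and 28.4%, beside 31.2% and 26.6% of all genes, and 57.8% in either direction), without overlap for 27 and 31 (44.1% and 36% of all genes). The shares lay near those of all genes in each comparison. Of the 67, 5 reached 1 FPKM in at least 3 libraries only through 1 group, the one where they were highest, so that they could be tested only because they were high there: Dnajc6 through c-MYC, Hspa1a through NL, and Hspa12b, Hspb2 and Hspb7 through c-MYC/FOXO1AAA. Leaving out those high through a group of the comparison, 18 of 65 were higher and 16 lower in c-MYC versus NL, 7 and 5 of 63 between the tumour groups, and 18 and 19 of 63 in c-MYC/FOXO1AAA versus NL. Rescaled to the same FPKM total, the split was 33 higher and 7 lower in c-MYC versus NL and 36 and 6 in c-MYC/FOXO1AAA versus NL. That rescaling put the median log2 fold change of all tested genes at 1.01 and 1.31 in these comparisons. The shares of all genes called with it were not counted. Counts with the same FPKM total, here and for the classes and the pathway below, therefore stand without a background share. The heat map of the tested genes and the plot of fold changes give the values by class.

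**Figure D1:**
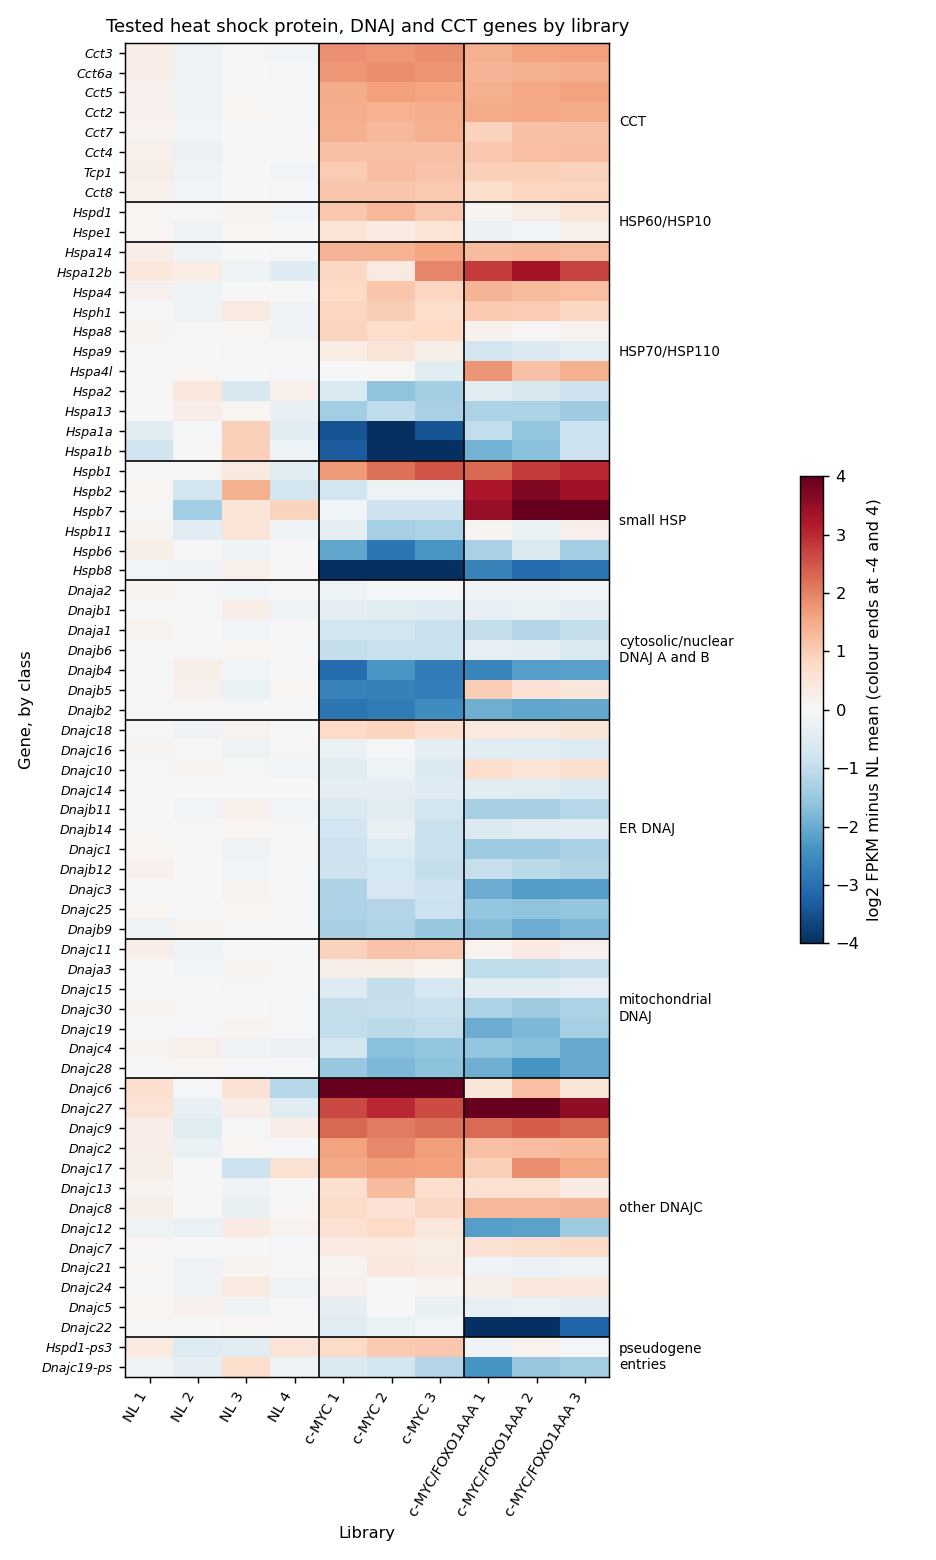
Log2 FPKM of the 67 tested members (rows, grouped by class) in the 10 libraries (columns), as the difference from the NL mean of each gene, with the colour ending at -4 and 4. The 8 CCT rows are red in all 6 tumour libraries, whereas Hspb8, Hspa1a and Hspa1b are darkest blue in the 3 c-MYC libraries.

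**Figure D2:**
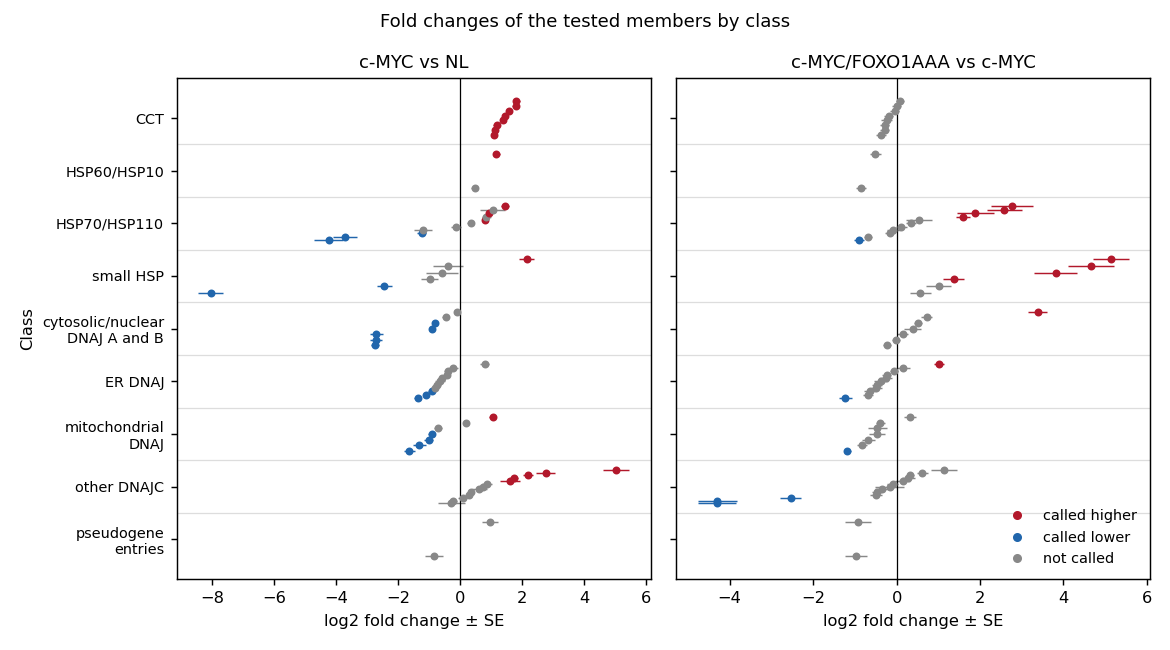
Log2 fold change of each tested member with its SE (horizontal axis) by class (vertical axis), for c-MYC versus NL on the left and c-MYC/FOXO1AAA versus c-MYC on the right, with called members in red (higher) or blue (lower). All 8 CCT genes are red on the left and none is on the right, and 4 of 6 small HSP genes are red on the right, of which Hspb2 and Hspb7 passed the filter only through c-MYC/FOXO1AAA. The panels share the c-MYC libraries.

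All 8 tested CCT subunits were higher in c-MYC tumours than in normal liver, by 2.13-fold to 3.5-fold, and stayed higher than NL with FOXO1AAA. The log2 fold changes against NL lay between 1.09 (Cct8) and 1.81 (Cct3) with a median of 1.40, beside 0.08 over all tested genes. They were called in 8 of 8 also with all libraries rescaled to the same FPKM total or the same median. On the deposited scale, 24.5% of all genes were called higher in c-MYC than in NL. Cct5, at 100.4 ± 9.69 FPKM (NL), 298 ± 17.2 FPKM (c-MYC) and 289 ± 19.0 FPKM (c-MYC/FOXO1AAA), and Cct2, at 87.9 ± 8.47 FPKM (NL), 236 ± 4.77 FPKM (c-MYC) and 249.6 ± 4.89 FPKM (c-MYC/FOXO1AAA), rose by 1.57 and 1.43 in log2. Cct4 was at 48.3 ± 5.83 FPKM (NL), 108 ± 0.916 FPKM (c-MYC) and 109 ± 6.37 FPKM (c-MYC/FOXO1AAA). Cct7 and Cct8, whose c-MYC means were 207 and 303 FPKM, rose by 1.37 and 1.09 in log2. Cct3 held 92.8, 67.3, 79.0 and 71.2 FPKM in NL, 275, 256 and 277 FPKM in c-MYC and 208, 237 and 240.1 FPKM in c-MYC/FOXO1AAA. Its 6 tumour libraries all lay above the 4 NL libraries (log2 fold change 1.81, SE 0.12, adjusted p 3.68e-06). Tcp1, which encodes the alpha subunit, held 109.5, 84.2, 92.3 and 86.5 FPKM in NL, 188, 217 and 202 FPKM in c-MYC and 179, 179 and 174 FPKM in c-MYC/FOXO1AAA, likewise without overlap (log2 fold change 1.13, SE 0.11, adjusted p 0.000635).

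Between the tumour groups, none of the 8 CCT subunits was called, at log2 fold changes of -0.37 to 0.08, and without the 1.5-fold threshold the limma adjusted p reached 0.021 for Cct6a (adjusted p 0.021 to 1 over its alternatives). Libraries of the 2 groups did not overlap for 5 subunits, lower with FOXO1AAA, and for 1, higher (30.7% and 32.7% of all genes). The interval of 2 SE on each side of the difference ran from -0.12 to 0.28 for Cct2, the largest, and from -0.61 to -0.13 for Cct6a, the lowest. Against NL, c-MYC/FOXO1AAA was higher for 8 of 8, with 0.80 for Cct8 the smallest (adjusted p 0.0422). That call was lost without NL 2, NL 3, NL 4, c-MYC/FOXO1AAA 2 or c-MYC/FOXO1AAA 3 (adjusted p 0.0788 to 0.109), and 7 of 8 were called with an equal median, where Cct8 was not. Levels of subunits cannot be ranked from the deposited FPKM, because the length used for Cct6a was that of a 460-bp retained-intron transcript. Its c-MYC mean of 1042 FPKM would be 195 FPKM at the 2454 bp of its longest annotated transcript, within the range of the other subunits. Cct6b, the testis form, was under the filter at 0.712 ± 0.222 FPKM in NL, 0.116 ± 0.0617 FPKM in c-MYC and 0.141 ± 0.0169 FPKM in c-MYC/FOXO1AAA, with all tumour libraries below all NL libraries.

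**Figure D3:**
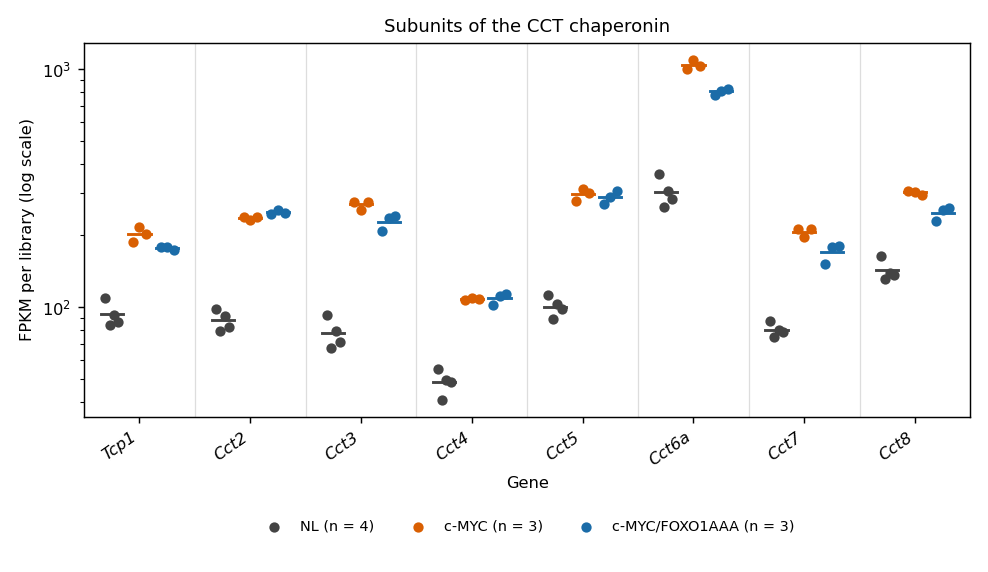
FPKM per library on a log axis for the 8 tested CCT subunits, with points for the libraries and bars for the group means. In each subunit the 3 c-MYC and 3 c-MYC/FOXO1AAA libraries lie above the 4 NL libraries, and Cct6a is plotted at the short length used for it.

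HSP60 rose in c-MYC tumours and its lid gene was not called. Hspd1 held 275, 250.3, 281 and 246 FPKM in NL, 556, 663 and 548 FPKM in c-MYC and 284, 322 and 374 FPKM in c-MYC/FOXO1AAA. The c-MYC libraries were above all others (log2 fold change 1.16, SE 0.12, adjusted p 0.00088), and those of c-MYC/FOXO1AAA were lower than c-MYC without overlap but short of the threshold (log2 fold change -0.85, SE 0.13, adjusted p 0.0899). Without c-MYC/FOXO1AAA 3 that difference was called (log2 fold change -0.96, adjusted p 0.0232, with adjusted p 0.000174 to 0.49 over its alternatives). Hspe1 held 356, 311, 359.7 and 334 FPKM in NL, 489.9, 428 and 493 FPKM in c-MYC and 288, 317 and 393 FPKM in c-MYC/FOXO1AAA, a difference of 0.47 in log2 against NL (SE 0.12, adjusted p 1). Both genes lie head to head, as given above. The ratio of Hspd1 to Hspe1 in FPKM was 0.736 to 0.805 in NL, 1.11 to 1.55 in c-MYC and 0.952 to 1.01 in c-MYC/FOXO1AAA, without overlap between groups. Rescaled to the same FPKM total, both genes were called higher in c-MYC and in c-MYC/FOXO1AAA than in NL.

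Mitochondrial HSP70 and its DNAJ partner were lower with FOXO1AAA than in c-MYC. Hspa9, mortalin, held 239, 234, 242 and 228 FPKM in NL, 286, 339 and 275 FPKM in c-MYC and 141, 157 and 183 FPKM in c-MYC/FOXO1AAA. Its c-MYC/FOXO1AAA libraries were below all others (log2 fold change -0.91, SE 0.12, adjusted p 0.0381), a call that was lost without c-MYC 1, c-MYC 2, c-MYC/FOXO1AAA 1 or c-MYC/FOXO1AAA 2 (adjusted p 0.0522 to 0.148) and with the same FPKM total. Dnaja3, also known as Tid1, is the DNAJ protein of the mitochondrial matrix and held 58.8, 53.4, 62.8 and 56.7 FPKM in NL, 68.5, 67.3 and 63.2 FPKM in c-MYC and 28.6, 28.5 and 30.7 FPKM in c-MYC/FOXO1AAA. It fell to less than each c-MYC library in all 3 (log2 fold change -1.18, SE 0.09, adjusted p 0.000221) and was called in each alternative of that comparison. Against NL it was lower as well (-0.98 in log2), but stood at 0.12 with the same FPKM total.

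Among the 7 mitochondrial DNAJ genes, 1 was higher and 4 were lower in c-MYC than in NL (2 higher and 0 lower with the same FPKM total). In c-MYC/FOXO1AAA 5 were below NL and 0 above it (1 below and 1 above with the same total). Over all genes the shares higher and lower were 24.5% and 23.6% in c-MYC versus NL. They were 31.2% and 26.6% in c-MYC/FOXO1AAA versus NL. Dnajc11, which belongs to the complex that shapes the inner membrane, was the one that rose, from 23.8 to 49.0 FPKM (log2 fold change 1.05, SE 0.11, adjusted p 0.00282), and stood at 27.5 FPKM in c-MYC/FOXO1AAA. Dnajc19, a partner of the import motor, lay between 38.2 and 42.8 FPKM in NL and fell to between 18.7 and 20.1 FPKM in c-MYC (-1.02 in log2, adjusted p 0.0127). Dnajc30 and Dnajc4 were the other members that were lower in c-MYC, with means of 14.0 and 7.37 FPKM for Dnajc30 and 25.5 and 10.6 FPKM for Dnajc4 in NL and c-MYC, and the log2 fold change of Dnajc30 turned from -0.92 to 0.0053 with the same FPKM total. Dnajc28 held 4.26 to 4.71 FPKM in NL, 1.28 to 1.56 FPKM in c-MYC and 0.867 to 1.14 FPKM in c-MYC/FOXO1AAA, with a log2 fold change of -1.65 in c-MYC versus NL (adjusted p 0.000217) that lost its call at the same FPKM total.

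**Figure D4:**
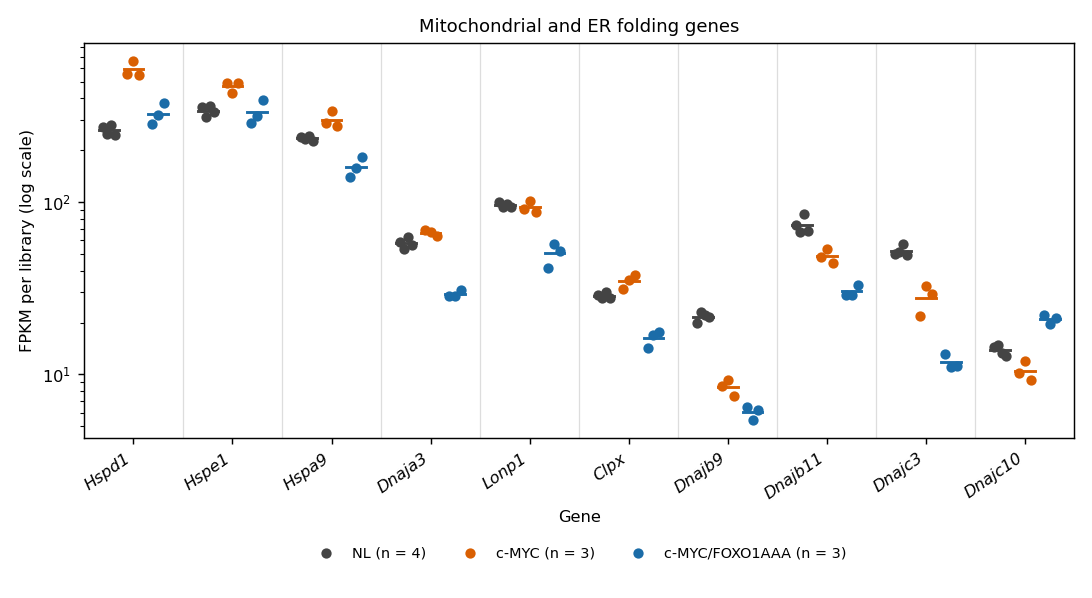
FPKM per library on a log axis for mitochondrial folding and protease genes (Hspd1 to Clpx) and ER genes (Dnajb9 to Dnajc10), with points for libraries and bars for group means. Hspa9, Dnaja3, Lonp1 and Clpx lie lowest in the 3 c-MYC/FOXO1AAA libraries, and Dnajc10 lies highest there.

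The inducible HSP70 genes of the cytosol were lower in c-MYC tumours, whereas the constitutive Hspa8 was higher by a narrow call that 11 of 15 alternatives did not keep. Hspa1a and Hspa1b encode the stress-inducible HSP70, are 9952 bp apart on chromosome 17 and are near-identical copies, so that reads could be split between them. Hspa1b held 8.89, 16.2, 30.4 and 13.6 FPKM in NL, 1.56, 0.516 and 0.703 FPKM in c-MYC and 4.2, 4.9 and 8.56 FPKM in c-MYC/FOXO1AAA. The c-MYC libraries lay below all others and c-MYC/FOXO1AAA lay between. Against NL the fall was a log2 fold change of -4.24, SE 0.47, adjusted p 3.92e-05, and the rise with FOXO1AAA over c-MYC was called (log2 fold change 2.76, SE 0.50, adjusted p 0.00356). NL 3 was the highest library, and without it the NL mean was 12.9 in place of 17.3 FPKM. Without c-MYC 1 the c-MYC mean was 0.609 in place of 0.926 FPKM. Hspa1a held 1.78, 2.33, 4.7 and 1.84 FPKM in NL, 0.224, 0.129 and 0.223 FPKM in c-MYC and 1.24, 0.818 and 1.36 FPKM in c-MYC/FOXO1AAA, in the same order of groups (-3.72 and 2.58 in log2, adjusted p 2.47e-05 and 0.00174). Hspa1a reached 1 FPKM in at least 3 libraries only through NL, where it is highest. In the log2(FPKM + 1) fit the rise of Hspa1a was not called (adjusted p 0.464, with adjusted p 0.000323 to 0.464 over its alternatives). The share of the NL level was 5.36% for Hspa1b and 7.22% for Hspa1a in c-MYC, and 34.1% and 42.9% in c-MYC/FOXO1AAA.

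Immediate early genes, which respond quickly to stress and to handling of tissue, moved between the tumour groups in the same direction as the inducible HSP70 genes. The 7 genes of that list (Fos, Fosb, Jun, Junb, Egr1, Ier2 and Atf3) summed to 91.2 to 108 FPKM in NL, 50.3 to 60.5 FPKM in c-MYC and 182 to 223 FPKM in c-MYC/FOXO1AAA, and 5 of the 6 tested were called higher with FOXO1AAA than in c-MYC. None of the 7 was at 0 in a whole group, and their part in the result was not tested.

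Hspa8, the constitutive HSC70 that takes part in folding and in clathrin uncoating, was the most abundant HSP70 gene per length. It held 483, 429, 469 and 408 FPKM in NL, 829, 727 and 779 FPKM in c-MYC and 503, 457 and 489 FPKM in c-MYC/FOXO1AAA. The 3 c-MYC libraries were above all others, with c-MYC/FOXO1AAA back within the range of NL or just above it (log2 fold change 0.80, SE 0.10, adjusted p 0.0493). The call was lost without NL 2, NL 3, NL 4, c-MYC 1 or c-MYC 3 (adjusted p 0.0549 to 0.147). It was also lost in the log2(FPKM + 1) fit, without the filter, with the same median, with only the 2 groups, with the replicate block and with voom on reads (adjusted p 0.0515 to 0.109), and the fall with FOXO1AAA was not called (-0.69 in log2, adjusted p 0.427). Cct6b, Hspa1l, Hspa12a, Hspa13, Hspa14, Hspb3, Hspb11, Dnajb6, Dnajb12, Dnajb13, Dnajb14, Dnajc4, Dnajc10, Dnajc11, Dnajc17, Dnajc19, Dnajc25 and Dnajc30 fall outside the rule for named genes and were chosen after their values were seen. Hspa14 is the HSP70 of the ribosome, where it works with Dnajc2, and both rose in c-MYC. Hspa14 lay between 8.75 and 11.9 FPKM in NL and between 25.2 and 29.8 FPKM in c-MYC (log2 fold change 1.44, SE 0.12, adjusted p 5.16e-05) and Dnajc2 between 7.91 and 11.6 FPKM and between 29.1 and 36.0 FPKM (log2 fold change 1.74, SE 0.13, adjusted p 1.5e-05). With FOXO1AAA Hspa14 stood between 23.4 and 25.1 FPKM and Dnajc2 between 21.5 and 24.1 FPKM, not called against c-MYC and higher than NL.

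All 3 genes of the HSP110 family, which recycles HSP70, were above NL in c-MYC/FOXO1AAA, and Hspa4 was also higher in c-MYC. Hspa4 held 32.3, 25.4, 28.4 and 27.8 FPKM in NL, 49.8, 61.7 and 51.6 FPKM in c-MYC and 73.1, 67.9 and 65.0 FPKM in c-MYC/FOXO1AAA, with each group above the one before it (log2 fold change 0.93, SE 0.11, adjusted p 0.0118 in c-MYC versus NL, lost without c-MYC 2 at adjusted p 0.0501, with adjusted p 1.21e-06 to 0.0501 over its alternatives). Hspa4l did not differ past the threshold between NL and c-MYC and rose with FOXO1AAA, from 40.8, 42.7 and 29.5 FPKM to 140.3, 92.6 and 110.2 FPKM (log2 fold change 1.6, SE 0.17, adjusted p 0.000371). The length used for it was 480 bp of a retained-intron transcript, 5.06% of the longest one, so its FPKM are not comparable with those of other genes. Hsph1, HSP105, held 21.0, 20.1, 28.0 and 19.9 FPKM in NL, 40.02, 43.3 and 36.0 FPKM in c-MYC and 45.6, 44.2 and 39.4 FPKM in c-MYC/FOXO1AAA. It was called higher in c-MYC/FOXO1AAA than in NL (log2 fold change 0.96, SE 0.13, adjusted p 0.0153), lost without c-MYC/FOXO1AAA 1 (adjusted p 0.0518) and with an equal median, and was short of the threshold in c-MYC (adjusted p 0.0742), where it was called without NL 3 (adjusted p 0.00738, with adjusted p 9.05e-06 to 0.207 over its alternatives). Relative to Hspa8, the ratio of Hspa4 was 0.0593 to 0.0683 in NL and 0.06 to 0.0848 in c-MYC but 0.133 to 0.149 in c-MYC/FOXO1AAA, and that of Hsph1 was 0.0436 to 0.0597, 0.0462 to 0.0595 and 0.0805 to 0.0967.

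Over the 11 tested HSP70 and HSP110 genes, c-MYC versus NL gave 3 calls up and 3 down (6 and 2 with the same FPKM total), and between the tumour groups 4 were higher and 1 lower with FOXO1AAA (4 and 0). In c-MYC/FOXO1AAA versus NL 5 were up and 1 down (6 and 0). Over all genes the shares up and down were 24.5% and 23.6%, 15.9% and 12.7%, and 31.2% and 26.6% in the same order of comparisons. Hspa13, an ER-associated HSP70, lay between 13.8 and 20.2 FPKM in NL and fell to between 6.51 and 8.4 FPKM in c-MYC (-1.23 in log2, adjusted p 0.0016). Its call was not kept at the same FPKM total. Hspa12b, a distant HSP70 that endothelial cells make, held 0.38, 0.345, 0.245 and 0.198 FPKM in NL, 0.498, 0.361 and 1.1 FPKM in c-MYC and 1.95, 2.84 and 1.83 FPKM in c-MYC/FOXO1AAA. It could be tested only through the c-MYC/FOXO1AAA libraries, where it is highest. The difference from c-MYC (log2 fold change 1.89, SE 0.44, adjusted p 0.0248) was lost without c-MYC 1, c-MYC 2 or c-MYC/FOXO1AAA 2 (adjusted p 0.0755 to 0.0998), and the c-MYC mean without c-MYC 3 was 0.429 in place of 0.654 FPKM. Summed endothelial markers (5 of 5 in the table) were 17.2 to 20.4 FPKM in NL, 9.72 to 17 FPKM in c-MYC and 25.5 to 40.6 FPKM in c-MYC/FOXO1AAA, of which Cdh5 took 35.8, 24.0 and 18.1 FPKM. Of the 4 tested, Cdh5 was called higher than in c-MYC (2.49 in log2), whereas Pecam1, Kdr and Stab2 had negative values (-0.71, -0.90 and -0.72) that were not called. None of the 5 was at 0 in a whole group, and their part in the result was not tested. Hspa2, the testis form, was at 4.76 ± 1.38 FPKM (NL), 2.11 ± 0.803 FPKM (c-MYC) and 2.94 ± 0.333 FPKM (c-MYC/FOXO1AAA) and was called in no comparison, though without NL 3 or without c-MYC 1 it was called lower in c-MYC (adjusted p 0.0142 and 0.0140, with adjusted p 0.00344 to 0.99 over its alternatives). The 2 genes under the filter were Hspa12a (group means 0.239, 0.648 and 0.75 FPKM) and Hspa1l (0.166, 0.165 and 0.185 FPKM).

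Small HSPs included the largest fall in c-MYC and the largest rise with FOXO1AAA among the tested members. Hspb8, which works with BAG3 in the removal of damaged proteins, held 129.6, 126, 160.3 and 141 FPKM in NL, 0.545, 0.241 and 1.11 FPKM in c-MYC and 21.6, 16.3 and 18.3 FPKM in c-MYC/FOXO1AAA. The groups did not overlap, with c-MYC/FOXO1AAA between the others. In reads this was 2156 to 2842 per NL library, 16, 6 and 35 in c-MYC and 964, 879 and 648 in c-MYC/FOXO1AAA. Its log2 fold change was -8.04 in c-MYC versus NL (SE 0.40, adjusted p 7.5e-08) and 5.14 between the tumour groups (SE 0.42, adjusted p 8.51e-06), and -2.9 remained against NL. Without c-MYC 3, the highest of its group, the c-MYC mean was 0.393 in place of 0.633 FPKM. The c-MYC level was 0.455% of NL and the c-MYC/FOXO1AAA level 13.4%. In the same libraries the 5 hepatocyte genes were at 0.173% (Cyp2e1), 1.94% (Alb), 7.92% (Apoa1), 12.3% (Cps1) and 12.4% (Ttr) of NL in c-MYC. In c-MYC/FOXO1AAA they were at 0.820%, 1.48%, 1.94%, 1.61% and 1.29% in the same order, so that Cyp2e1 was higher than in c-MYC and Apoa1, Cps1 and Ttr were lower (each called), while Alb was not called. The part of hepatocyte content in the fall was not tested.

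Hspb6, HSP20, had the same order of groups at a smaller size. It held 18.9, 15.3, 14.4 and 16.4 FPKM in NL, 3.8, 2.15 and 3.2 FPKM in c-MYC and 6.58, 10.9 and 6.26 FPKM in c-MYC/FOXO1AAA. It fell in c-MYC (log2 fold change -2.44, SE 0.23, adjusted p 2.61e-05) and rose again with FOXO1AAA (log2 fold change 1.37, SE 0.25, adjusted p 0.0197), the latter lost without c-MYC 2 or c-MYC/FOXO1AAA 2 (adjusted p 0.0792 and 0.0802, with adjusted p 0.000777 to 0.0802 over its alternatives). Hspb1, HSP27, went the other way. It held 9.15, 9.53, 11.9 and 6.92 FPKM in NL, 30.2, 42.7 and 52.4 FPKM in c-MYC and 45.2, 64.3 and 75.1 FPKM in c-MYC/FOXO1AAA. All tumour libraries were above NL (log2 fold change 2.14, SE 0.24, adjusted p 0.000123), and the tumour groups overlapped (0.56 in log2, adjusted p 1). Hspb1, Hspb6 and Hspb8 moved in both directions in c-MYC, and each stretch shown above holds the heat shock element core. Hspb11, a transport protein of cilia that is listed with the small HSPs by name, was at 6.74 ± 1.99 FPKM (NL), 3.46 ± 1.4 FPKM (c-MYC) and 6.69 ± 1.11 FPKM (c-MYC/FOXO1AAA) and was called in no comparison.

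The muscle-type small HSPs Hspb2, Hspb3 and Hspb7 had at most 4 reads in any NL or c-MYC library and were read in all 3 c-MYC/FOXO1AAA libraries. Hspb7 had 2, 0, 3 and 4 reads in NL, 3, 1 and 1 in c-MYC and 81, 198 and 111 in c-MYC/FOXO1AAA, a ratio of 58.5 between the tumour groups on scaled reads (95% interval 24.8 to 181, from 390 against 5 reads). Hspb2 had 1, 0, 4 and 0 reads, 0, 1 and 1 reads and 43, 73 and 38 reads, a ratio of 57.7 (15.7 to 481, from 154 against 2 reads). Hspb3 had 0 reads in all NL and c-MYC libraries and 16, 15 and 10 in c-MYC/FOXO1AAA, which is at least 3.42-fold higher than c-MYC and at least 1.80-fold higher than NL at a floor of 3 reads per library. These intervals and floors cover counting error only. Hspb7 and Hspb2 passed the filter only through the c-MYC/FOXO1AAA libraries where they are high, so that a difference was bound to appear, at limma adjusted p 9.38e-05 and 0.000303 against c-MYC, and Hspb3 was under the filter. NL 3 held 4 of the 5 NL reads of Hspb2, and without it the NL mean was 0.269 in place of 0.441 FPKM.

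Skeletal muscle markers moved with these genes. The 7 listed (Acta1, Ckm, Myh3, Myh8, Tnnt3, Des and Myog) were all in the table and summed to 2.46 to 3.5 FPKM in NL, 1.74 to 6.95 FPKM in c-MYC and 336 to 433 FPKM in c-MYC/FOXO1AAA, where 6 of 7 were called higher than c-MYC. Myog and Myh8 stood at the floor of the table in every NL and c-MYC library. Stellate cell and fibroblast markers (6 of 6 in the table, none at 0 in a whole group) summed to 77.8 to 99.4, 10.2 to 32.4 and 267 to 354 FPKM in the same order. Dcn alone took 312, 178 and 218 FPKM in c-MYC/FOXO1AAA. Against c-MYC all 6 were positive there and 3 were called higher. Against NL 4 were called higher, Lrat was called lower (-3.93 in log2) and Reln was not called (0.22). The part of the muscle, stellate cell and fibroblast markers in the levels of the small HSPs was not tested. Of the 6 tested small HSPs, 1 was higher and 2 lower in c-MYC than in NL, also with the same FPKM total, and 4 rose and 0 fell with FOXO1AAA against c-MYC. Among the 4 genes other than Hspb2 and Hspb7, 2 rose (Hspb6 and Hspb8) and 0 fell, at a median log2 fold change of 1.19 beside 0.03 over all tested genes. In c-MYC/FOXO1AAA versus NL 3 were higher and 1 lower (4 and 1 with the same FPKM total), and 1 was higher and 1 lower among those 4. For all genes the shares higher and lower were 24.5% and 23.6%, 15.9% and 12.7%, and 31.2% and 26.6% in the same order of comparisons.

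**Figure D5:**
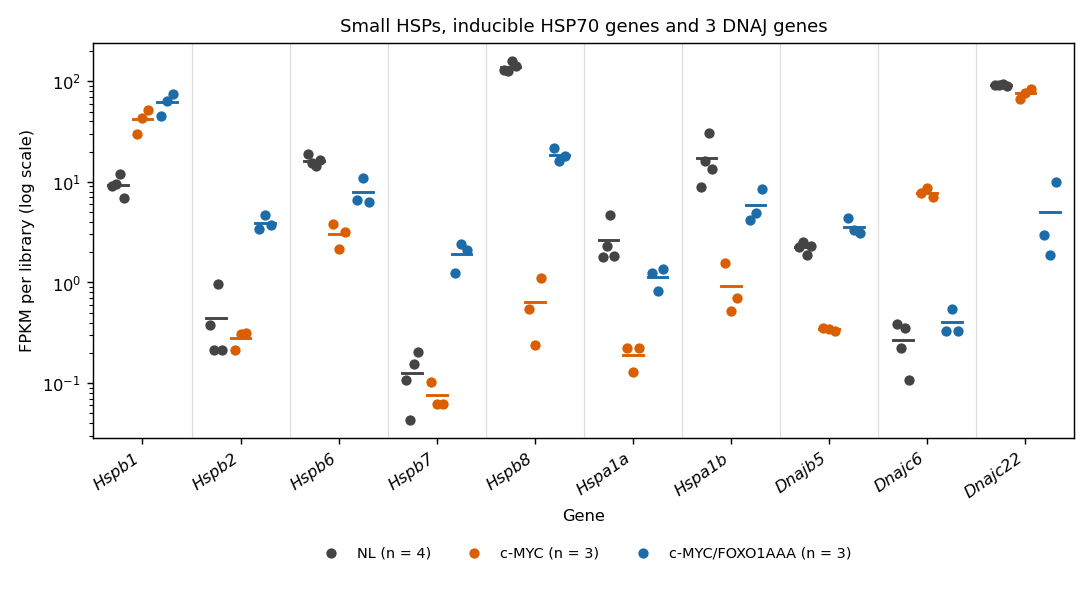
FPKM per library on a log axis for 5 small HSP genes, Hspa1a, Hspa1b and 3 DNAJ genes, with points for libraries and bars for group means. Hspb8, Hspb6, Hspa1a, Hspa1b and Dnajb5 are lowest in the 3 c-MYC libraries, Dnajc6 is highest there, and Dnajc22 is lowest in c-MYC/FOXO1AAA. Values near the bottom of the axis rest on few reads.

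The DNAJ A and B proteins of cytosol and nucleus, the main partners of HSC70, were lower in c-MYC or not called: 0 higher and 5 lower of 7 tested, and 1 higher and 3 lower with the same FPKM total. Between the tumour groups 1 rose and 0 fell, and in c-MYC/FOXO1AAA versus NL 3 were lower and 0 higher (2 lower and 2 higher with the same total). Beside this, 23.6% of all genes were called lower in c-MYC versus NL and 26.6% in c-MYC/FOXO1AAA versus NL. Between the tumour groups 15.9% of all genes were higher and 12.7% lower. Dnaja1 held 63.4, 57.6, 53.3 and 57.5 FPKM in NL, 33.8, 34.7 and 31.0 FPKM in c-MYC and 29.6, 25.8 and 29.9 FPKM in c-MYC/FOXO1AAA. Its tumour libraries were all below NL (log2 fold change -0.80, SE 0.10, adjusted p 0.0452), yet the c-MYC call was lost without NL 1, NL 2, NL 4, c-MYC 1 or c-MYC 3 (adjusted p 0.0697 to 0.146), and the change was 0.12 with the same FPKM total. Dnaja2, the other main class A protein, was at 331 ± 20.2 FPKM in NL and 306 ± 17.8 FPKM in c-MYC at the 507 bp of a retained-intron transcript, with groups that overlapped. Dnajb1, HSP40, was at 16.2 ± 2.29 FPKM (NL), 11.7 ± 0.558 FPKM (c-MYC) and 12.9 ± 0.61 FPKM (c-MYC/FOXO1AAA) and was called in no comparison. Dnaja4 was under the filter at 0.401 to 1.24 FPKM in NL, 0.0394 to 0.216 FPKM in c-MYC and 0.736 to 0.999 FPKM in c-MYC/FOXO1AAA.

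Other genes of the class fell further. Dnajb2, which carries ubiquitin-binding motifs, held 34.4, 34.2, 32.1 and 31.7 FPKM in NL, 4.32, 4.73 and 5.93 FPKM in c-MYC and 8.63, 7.76 and 8.09 FPKM in c-MYC/FOXO1AAA, with all tumour libraries below NL (log2 fold change -2.74, SE 0.12, adjusted p 5.01e-08). Dnajb4, a relative of HSP40, held 16.0, 19.9, 15.7 and 17.0 FPKM in NL, 2.02, 3.43 and 2.48 FPKM in c-MYC and 2.73, 3.68 and 3.81 FPKM in c-MYC/FOXO1AAA (log2 fold change -2.73, SE 0.19, adjusted p 2.45e-06). Both were also lower than NL with FOXO1AAA, at 24.7% and 19.9% of it. Dnajb5 was the tested member of this class called lower in c-MYC and higher again with FOXO1AAA. Dnaja4, which was under the filter and not tested, likewise lay below NL in c-MYC and within the NL range in c-MYC/FOXO1AAA. Dnajb5 held 2.26, 2.51, 1.87 and 2.33 FPKM in NL, 0.349, 0.341 and 0.333 FPKM in c-MYC and 4.39, 3.32 and 3.08 FPKM in c-MYC/FOXO1AAA. It fell in c-MYC (log2 fold change -2.71, SE 0.21, adjusted p 4.57e-06) and with FOXO1AAA stood above all c-MYC and NL libraries (log2 fold change 3.38, SE 0.22, adjusted p 2.17e-06), a difference from NL that was not called (adjusted p 0.483) except with the same FPKM total. Dnajb6, which keeps aggregation-prone proteins soluble, lay between 105 and 117 FPKM in NL and fell to between 56.6 and 59.98 FPKM in c-MYC (-0.92 in log2, adjusted p 0.00536), a value that turned to 0.0083 with the same FPKM total. Dnajb13, a protein of sperm and cilia, had 0 reads in NL and 61 reads over the c-MYC libraries, at least 3.56-fold more at the floor of 3 reads.

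The ER DNAJ genes, some of which serve BiP in the folding and disposal of secreted proteins, were lower than NL or not called against it. In c-MYC 3 of 11 were lower and 0 higher, and in c-MYC/FOXO1AAA 6 were lower and 0 higher. With the same FPKM total the counts were 1 higher and 0 lower in c-MYC, and 2 higher and 1 lower in c-MYC/FOXO1AAA. Before rescaling, 23.6% of all genes were called lower in c-MYC and 26.6% in c-MYC/FOXO1AAA, and 3 of 11 lies near the first share. The log2 fold change was positive for 1 of the 11 in c-MYC versus NL and for 9 with the same total, and for 2 and 6 in c-MYC/FOXO1AAA versus NL, where Dnajb12 turned from -1.07, called lower, to 0.031. Dnajc3 (P58IPK), a BiP partner and inhibitor of eIF2α kinases, fell at both steps. It held 49.999, 51.5, 56.8 and 49.0 FPKM in NL, 21.8, 32.5 and 29.4 FPKM in c-MYC and 13.2, 11.0 and 11.2 FPKM in c-MYC/FOXO1AAA, with no overlap between any 2 groups. The first step (log2 fold change -0.91, SE 0.14, adjusted p 0.0393) was lost without any 1 NL library or without c-MYC 1 (adjusted p 0.0502 to 0.185) and stood at 0.01 with the same FPKM total. The step with FOXO1AAA (log2 fold change -1.23, SE 0.15, adjusted p 0.00315) was called in every alternative. Dnajb9 (ERdj4) held 19.8, 23.1, 22.1 and 21.6 FPKM in NL, 8.57, 9.3 and 7.5 FPKM in c-MYC and 6.5, 5.42 and 6.22 FPKM in c-MYC/FOXO1AAA, lower than NL in both tumour groups (log2 fold change -1.36, SE 0.11, adjusted p 8.21e-05 in c-MYC), a call that was not kept at the same FPKM total. Dnajb11 (ERdj3) was at 73.4 ± 8.17 FPKM (NL), 48.6 ± 4.79 FPKM (c-MYC) and 30.4 ± 2.41 FPKM (c-MYC/FOXO1AAA), and passed the threshold in c-MYC/FOXO1AAA versus NL (log2 fold change -1.27, SE 0.11, adjusted p 0.000137). That call, too, was lost with the same FPKM total.

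Dnajc10 (ERdj5), a disulfide reductase of the ER, was the one ER member that rose with FOXO1AAA. It held 14.3, 14.8, 13.3 and 12.8 FPKM in NL, 10.2, 11.9 and 9.3 FPKM in c-MYC and 22.3, 19.7 and 21.3 FPKM in c-MYC/FOXO1AAA. Its c-MYC/FOXO1AAA libraries were above all others (log2 fold change 1.01, SE 0.12, adjusted p 0.00892). The GTAAACA letters shown above lie 196 to 190 bases before its start. Dnajc25 was the other ER member called lower in c-MYC than in NL, at means of 87.3 and 41.0 FPKM (-1.1 in log2), a call not kept at the same FPKM total. Leaving out Dnajc10, the log2 fold changes of the class between the tumour groups ran from -1.23 (Dnajc3) to 0.16 (Dnajb14). Hspa5, which encodes BiP and is not a member, stood at 360.4 ± 22.4 FPKM (NL), 397 ± 48.8 FPKM (c-MYC) and 209 ± 37.7 FPKM (c-MYC/FOXO1AAA).

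The other DNAJC genes, a mixed class whose members serve particular machines, included the largest value of all tested members in c-MYC versus NL, that of Dnajc6. This gene, auxilin, strips clathrin from vesicles together with HSC70 and held 0.384, 0.224, 0.354 and 0.107 FPKM in NL, 7.7, 8.64 and 7.12 FPKM in c-MYC and 0.331, 0.545 and 0.333 FPKM in c-MYC/FOXO1AAA. The c-MYC libraries stood far above both other groups, which overlapped, and the gene could be tested only through these 3 libraries (log2 fold change 5.03, SE 0.43, adjusted p 3.89e-06 and log2 fold change -4.32, SE 0.46, adjusted p 4.4e-05). In reads this was 21, 10, 17 and 4 in NL, 741, 854 and 686 in c-MYC and 40, 82 and 32 in c-MYC/FOXO1AAA. It was the 1 member called higher in c-MYC and lower again with FOXO1AAA, and its stretch above holds the FOXO motif as read on the opposite strand.

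Dnajc22 and Dnajc12 were called between the tumour groups and not between c-MYC and NL. Dnajc22 held 92.0, 90.9, 94.1 and 89.8 FPKM in NL, 66.2, 76.3 and 84.4 FPKM in c-MYC and 2.98, 1.87 and 10.1 FPKM in c-MYC/FOXO1AAA. NL and c-MYC lay close together and c-MYC/FOXO1AAA far below (log2 fold change -4.3, SE 0.47, adjusted p 6.83e-05). Without c-MYC/FOXO1AAA 3, the highest of its group, the mean was 2.43 in place of 4.97 FPKM and the log2 fold change -4.99. Dnajc12, a partner of aromatic amino acid hydroxylases, held 3.15, 2.98, 4.54 and 4.02 FPKM in NL, 5.48, 6.36 and 4.95 FPKM in c-MYC and 0.791, 0.814 and 1.35 FPKM in c-MYC/FOXO1AAA and was lowest in c-MYC/FOXO1AAA (log2 fold change -2.54, SE 0.25, adjusted p 6.59e-05). Whether the 2 comparisons differ was not tested for these genes.

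Dnajc9 and Dnajc27 rose in c-MYC and were higher than NL with FOXO1AAA as well. Dnajc9, a histone co-chaperone, held 7.29, 4.3, 5.85 and 7.18 FPKM in NL, 29.3, 25.4 and 27.4 FPKM in c-MYC and 29.2, 32.1 and 29.8 FPKM in c-MYC/FOXO1AAA (log2 fold change 2.18, SE 0.17, adjusted p 7.28e-06). All 4 cell cycle markers listed (Mki67, Top2a, Ccnb1 and Cdk1, none at 0) rose in the same comparison, from a sum of 2.78 to 16.8 FPKM in NL to 223 to 257 FPKM in c-MYC, and their part in the change was not tested. Dnajc27, a small GTPase with a J domain, held 0.472, 0.257, 0.389 and 0.23 FPKM in NL, 2.01, 2.61 and 1.97 FPKM in c-MYC and 5.59, 5.23 and 3.79 FPKM in c-MYC/FOXO1AAA (log2 fold change 2.75, SE 0.30, adjusted p 5.17e-05). Dnajc21, a factor of the large ribosomal subunit, was at 14.2 ± 0.951 FPKM (NL), 17.4 ± 1.9 FPKM (c-MYC) and 12.6 ± 0.571 FPKM (c-MYC/FOXO1AAA) and was called in no comparison. Dnajc17, a spliceosome-linked protein, was the last of the class to be called higher in c-MYC than in NL, at means of 2.0 and 5.76 FPKM (adjusted p 0.0109). Of the rest, Dnajc5, Dnajc7, Dnajc8, Dnajc13 and Dnajc24 were called neither in c-MYC versus NL nor between the tumour groups. Among all 13 in the class, 5 were above and 0 below NL in c-MYC (11 and 0 with the same FPKM total), 0 rose and 3 fell between c-MYC and c-MYC/FOXO1AAA, and against NL the latter had 5 higher and 2 lower (10 and 1). The shares higher and lower over all genes were 24.5% and 23.6%, 15.9% and 12.7%, and 31.2% and 26.6% in these comparisons.

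Across both steps, which share the c-MYC libraries, 5 members were lower in c-MYC and higher again with FOXO1AAA (Dnajb5, Hspa1a, Hspa1b, Hspb6 and Hspb8), 1 was higher and then lower (Dnajc6), 1 was lower at both steps (Dnajc3) and 0 were higher at both. A further 18 were higher in c-MYC and 11 lower without a call between the tumour groups, 5 rose and 4 fell with FOXO1AAA without a call in c-MYC versus NL, and 22 were called at neither step. Among the genes with a call, Hspa1a, Dnajc6, Hspa12b, Hspb2 and Hspb7 passed the filter only through the group where they are highest. These patterns were not counted over all genes, so the counts describe the members without a background share. The pseudogene entries Hspd1-ps3 (7.16, 13.3 and 6.75 FPKM in NL, c-MYC and c-MYC/FOXO1AAA) and Dnajc19-ps (16.1, 8.74 and 4.75 FPKM) may hold reads of Hspd1 and Dnajc19, and neither was called in the first 2 comparisons.

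Other genes of the pathway were read from a list of 48 co-chaperones, HSP90 genes, prefoldin subunits, heat shock factors and mitochondrial proteases, of which 46 were tested. In c-MYC versus NL 12 were higher and 5 lower (26.1% and 10.9%, beside 24.5% and 23.6% of all genes), or 35 and 2 with the same FPKM total. Between the tumour groups 0 rose and 2 fell with FOXO1AAA (4.35% lower, beside 12.7% of all genes), or 2 and 1 with the same total. In c-MYC/FOXO1AAA versus NL 12 were higher and 7 lower (26.1% and 15.2%, beside 31.2% and 26.6%), or 30 and 1. The 12 higher calls of either comparison with NL were kept with the same total, which raised the values of all genes against NL. Of the lower ones, Hsf4 and Sil1 were kept in c-MYC and Hsf4 in c-MYC/FOXO1AAA. With the same median most calls in both directions were kept. In c-MYC 10 of the 12 higher and all 5 lower calls were kept, and in c-MYC/FOXO1AAA 9 of the 12 and all 7. The cytosolic HSP90 genes rose with CCT: Hsp90aa1 held 94.3, 84.4, 109.8 and 79.3 FPKM in NL, 285, 348 and 297 FPKM in c-MYC and 194, 202 and 222 FPKM in c-MYC/FOXO1AAA (log2 fold change 1.76, SE 0.13, adjusted p 7.83e-06), and Hsp90ab1 was at 534 ± 47.2 FPKM (NL), 1371 ± 60.04 FPKM (c-MYC) and 1140.0 ± 65.7 FPKM (c-MYC/FOXO1AAA) (log2 fold change 1.36, SE 0.10, adjusted p 2.61e-05). Hsf1, the main heat shock factor, was at 10.4 ± 1.32 FPKM (NL), 21.3 ± 1.85 FPKM (c-MYC) and 28.6 ± 5.32 FPKM (c-MYC/FOXO1AAA) and higher than NL in both tumour groups (1.04 and 1.45 in log2, adjusted p 0.0138 and 0.000206). Bag2, an inhibitor of the ubiquitin ligase CHIP, rose from 2.38 to 30.9 FPKM and the mitochondrial protease Htra2 from 11.8 to 69.2 FPKM in c-MYC (3.73 and 2.57 in log2). Hsf4 and Sil1, the exchange factor of BiP, were lower (-2.1 and -1.71). In c-MYC/FOXO1AAA versus NL, Bag2 (4.1) and Htra2 (1.98) rose most and Hsf4 (-2.21) and Grpel1 (-1.46), the exchange factor of mortalin, were lowest, and with the same FPKM total Grpel1 stood at -0.37 without a call.

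The 2 pathway genes called lower between the tumour groups were both of mitochondrial proteases. Clpx, the ATPase of the ClpXP protease, was at 34.8 ± 3.27 FPKM in c-MYC and 16.3 ± 1.84 FPKM in c-MYC/FOXO1AAA (log2 fold change -1.1, SE 0.11, adjusted p 0.00241), and Lonp1, the Lon protease, at 93.3 ± 7.15 FPKM and 50.4 ± 8.13 FPKM (log2 fold change -0.90, SE 0.12, adjusted p 0.047). With the same FPKM total Clpx was still called and Lonp1 was not (-0.93 and -0.73 in log2, adjusted p 0.0207 and 0.318). All 7 genes listed for mitochondrial quality control had c-MYC/FOXO1AAA libraries below all c-MYC libraries, beside 30.7% of all genes, and 2 of the 7 were called. Hspd1, Hspe1, Hspa9 and Dnaja3 were below c-MYC without overlap in the same comparison, and of these Hspa9 and Dnaja3 were called.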

How the data were processed

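RNA-seq of 10 mouse livers and liver tumours was analysed from 1 table. The authors analysed counts per gene with edgeR, and the deposited values are log2 FPKM which, judged from their steps, use scaled library sizes and a prior count of 2 scaled to library size. The aligner and the counter are not given in the sources used here, the labels list GRCm38 and FastQC 0.11.7, and strand use is not stated, so overlapping genes cannot be separated. Libraries were made by poly(A) capture or rRNA removal. Whole reads were recovered from the steps of the deposited log2 values and used for depth, low genes and a voom fit. Genes with at least 1 FPKM in at least 3 libraries (14017) were fitted with limma 3.58.1 (R 4.3.3, statmod 1.5.0) over all 10 libraries, with trend and robust variance, and tested with treat for a change above 1.5-fold. P-values were adjusted by Benjamini-Hochberg over all genes tested and called under 0.05. A script was tested on simulated data. A fold change is on the deposited log2 scale, where the prior count narrows the changes of low genes. Intervals of read ratios are 95% and cover counting error only.

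Members, classes and pathway lists were chosen with earlier results of these data known. Named genes were a panel of 35 members, the 5 with the largest change among called members in each direction and comparison, and, of the pathway, Hsp90aa1, Hsp90ab1, Hsf1 and the 2 largest in each direction. Alternatives were log2(FPKM + 1), no filter, 2 other scalings, no fold threshold, only the 2 groups compared, a replicate block, voom on reads and leaving out each library. Lengths behind the FPKM were those of single transcripts, under 50% of the longest for 8 members, so levels are compared between genes only where this is stated.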

Additional observations from a re-analysis of the deposited data

Results flagged for a closer look

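In NL, a group of 4, 1 library lay far from the other 3 for 4 of the 67 tested members, each time NL 3, by a gap to the nearest library above Dixon's 95% critical value. Chance alone flags about 1 in 20 groups. Hsph1 stood at 28.0 FPKM in NL 3 and between 19.9 and 21.0 FPKM in the other libraries. Dnajc24, a factor of diphthamide synthesis, stood at 6.52 FPKM against 4.62 to 4.86 FPKM, and Dnajc15, of the mitochondrial inner membrane, at 6.14 against 5.81 to 5.85 FPKM. Dnajc1, an ER membrane protein, was lower, at 7.46 against 8.45 to 8.60 FPKM. Without NL 3, Hsph1 was called higher in c-MYC than in NL (log2 fold change 0.96, limma adjusted p 0.00738, against 0.0742 with all libraries).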

How the results depend on the processing

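Scaling mattered most. With the same FPKM total in all libraries, 33 members were higher and 7 lower in c-MYC versus NL, and 36 higher and 6 lower in c-MYC/FOXO1AAA versus NL. Without the fold threshold the counts were 30 higher and 28 lower in c-MYC versus NL, 17 and 23 between the tumour groups, and 30 lower in c-MYC/FOXO1AAA versus NL. Shares over all genes were not counted for these alternatives. All other alternatives moved the counts by less than 1.5 times. With the same total, 20 log2 fold changes turned positive in c-MYC versus NL: Hspa4l (0.78), Hspb7 (0.35), Hspb2 (0.54), Dnaja1 (0.12), Dnaja2 (0.82), Dnajb1 (0.46), Dnajb11 (0.34), Dnajc3 (0.015) and Dnajc22 (0.64), with Dnajb6, Dnajb12, Dnajb14, Dnajc1, Dnajc5, Dnajc10, Dnajc14, Dnajc15, Dnajc16, Dnajc19-ps and Dnajc30 between 0.0053 and 0.71. In c-MYC/FOXO1AAA versus NL they were 17: Hspa2 (0.45), Hspa9 (0.54), Hspe1 (1.06), Hspb6 (0.021), Dnaja1 (0.0687), Dnaja2 (0.97), Dnaja3 (0.12), Dnajb1 (0.78) and Dnajc21 (0.92), with Dnajb6, Dnajb12, Dnajb14, Dnajc5, Dnajc14, Dnajc15, Dnajc16 and Hspd1-ps3 between 0.031 and 1.08. Between the tumour groups they were 7: Cct5 (0.13) and Dnaja2 (0.16), with Dnajc5, Dnajc14, Dnajc17, Hspa13 and Hspa14 between 0.0072 and 0.10. With the same median, Cct2 (-0.00586) and Cct4 (-0.081) turned negative between the tumour groups and Hspa8 (-0.023) and Hspb11 (-0.12) in c-MYC/FOXO1AAA versus NL. Of the pathway genes, 13, 3 and 19 turned positive with the same total in c-MYC versus NL, between the tumour groups and in c-MYC/FOXO1AAA versus NL, and of these Hsbp1 in the first and Clpx, Grpel2 and Lonp1 in the last had been called lower. These turns follow from the shift that each scaling puts on all genes. Of 1848 alternative values for 126 results of named members, 1703 kept direction and side of the threshold, 60 lost their call, 53 gained one and 32 changed sign.

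Leaving out 1 library at a time gave 18 to 19 higher and 15 to 18 lower members in c-MYC versus NL, 8 to 10 and 5 to 8 between the tumour groups, and 19 to 21 and 19 to 20 in c-MYC/FOXO1AAA versus NL. Log2 fold changes near 0 changed sign: Hspa4l (-0.24 to 0.022) and Hspb2 (-0.63 to 0.087) in c-MYC versus NL, Cct4 (-0.0255 to 0.0536), Cct5 (-0.0910 to 0.0039) and Dnaja2 (-0.064 to 0.010) between the tumour groups, and Hspe1 (-0.17 to 0.056) in c-MYC/FOXO1AAA versus NL. With the replicate number as a block, 18 members were higher and 16 lower in c-MYC versus NL, 8 and 5 between the tumour groups and 19 and 19 in c-MYC/FOXO1AAA versus NL. Same-numbered libraries did not deviate together (r from -0.0398 to 0.0272). This gives no sign of pairing by number, but cannot tell whether samples were handled in pairs. Depth limits the genes with few reads, Hspb2, Hspb3 and Hspb7 in NL and c-MYC and Hspa1a in c-MYC.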
